A study of Mus musculus with 12 samples.

Results

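Interferon response genes are the genes that cells switch on, or raise, when interferon reaches its receptor, together with the sensors that start interferon production and the factors that carry the signal. A named set of 39 of them was followed here in mouse choroid plexus. The choroid plexus, a sheet of secretory cells over a core of vessels, fills the brain ventricles with cerebrospinal fluid. Members were chosen by symbol, and all 39 were found among the 52459 gene symbols of the expression table. They comprise 4 sensors of viral RNA, 11 genes of signalling and regulation, and 24 effectors. The samples were whole choroid plexus dissected from mice of the B6 strain, without a genetic change or treatment named in the labels, at E12.5 (an embryonic stage), P0 (the day of birth), P14 (postnatal day 14) and A6m (6 months), with 3 libraries per age. The authors gave expression as TPM, a transcript's share of all transcripts after correction for length, and 35 members reached at least 1 TPM in at least 3 of the 12 libraries. Calls come from limma on log2(TPM + 1) at an adjusted p under 0.05 over all 17422 genes tested, and differences are given on that log2 scale, later age minus earlier age, with their standard errors (SE). The 4 members below the limit were the effectors Oas2, Oas3, Oasl1 and Mx1.

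Interferon signalling runs in a loop. Cytosolic helicases such as MDA5 (Ifih1) and RIG-I (Ddx58) detect viral RNA and, through adaptors and the factors IRF3 and IRF7, switch on interferon genes. Secreted type I interferon binds the receptor made of IFNAR1 and IFNAR2, and a complex that includes STAT2 and IRF9 then enters the nucleus and binds interferon-stimulated response elements in promoters. The genes it raises include effectors against viruses (the Ifit, Oas, Mx and Ifitm families, Isg15, Rsad2, Bst2), more sensors and IRF7, and the brake USP18, which binds IFNAR2 and removes ISG15 from proteins. The choroid plexus, a border between blood and cerebrospinal fluid, is known to show a type I interferon programme in old age.

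Promoters in which the response element can be read are shown first. They were chosen for their matches and not as the members that changed most, and Ifi44, which differed 11.5-fold between its highest and lowest age means and had no match, is not printed. The windows are the 250 bases before the annotated start in RefSeq (GRCm38.p6), which held an entry for 30 of the 39 members. Capitals mark the letters GAAANNGAAA, the core of the interferon-stimulated response element, on either strand (on the opposite strand it appears as its reverse complement), and overlapping matches run together. Each promoter is written 5′ to 3′ in the direction of its gene, and Ifnar1 is shown as a member with no match.
Isg15: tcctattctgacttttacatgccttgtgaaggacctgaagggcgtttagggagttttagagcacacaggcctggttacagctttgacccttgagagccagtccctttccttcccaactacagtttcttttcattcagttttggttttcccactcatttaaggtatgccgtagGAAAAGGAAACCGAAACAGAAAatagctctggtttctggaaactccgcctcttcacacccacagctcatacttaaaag
Ifit1: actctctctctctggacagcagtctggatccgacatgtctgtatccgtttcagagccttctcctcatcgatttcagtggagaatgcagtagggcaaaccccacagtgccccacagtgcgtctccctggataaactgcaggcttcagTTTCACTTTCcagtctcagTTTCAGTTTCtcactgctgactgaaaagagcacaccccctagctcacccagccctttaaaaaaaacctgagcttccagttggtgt
Ifit3: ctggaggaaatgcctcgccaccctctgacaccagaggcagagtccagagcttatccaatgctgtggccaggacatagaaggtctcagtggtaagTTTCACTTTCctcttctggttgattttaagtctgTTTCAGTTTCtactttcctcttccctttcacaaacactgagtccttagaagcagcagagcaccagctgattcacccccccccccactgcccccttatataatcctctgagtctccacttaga
Ifit3b: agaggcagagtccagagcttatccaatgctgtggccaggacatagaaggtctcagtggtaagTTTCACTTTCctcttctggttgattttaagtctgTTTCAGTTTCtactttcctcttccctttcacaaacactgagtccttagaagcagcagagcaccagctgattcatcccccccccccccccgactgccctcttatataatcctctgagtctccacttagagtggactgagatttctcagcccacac
Bst2: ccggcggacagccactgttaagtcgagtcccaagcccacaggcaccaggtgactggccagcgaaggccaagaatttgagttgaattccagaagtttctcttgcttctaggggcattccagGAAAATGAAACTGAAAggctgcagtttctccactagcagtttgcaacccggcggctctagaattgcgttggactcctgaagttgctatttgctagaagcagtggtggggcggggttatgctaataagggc
Ifnar1: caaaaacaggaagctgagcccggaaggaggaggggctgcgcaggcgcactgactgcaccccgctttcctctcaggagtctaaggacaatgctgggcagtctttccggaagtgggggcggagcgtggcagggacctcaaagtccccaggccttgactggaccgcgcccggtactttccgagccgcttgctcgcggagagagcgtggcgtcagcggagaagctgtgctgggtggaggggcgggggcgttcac
The windows lie at chr4:156200819-156201068 on the minus strand (Isg15), chr19:34640639-34640888 on the plus strand (Ifit1), chr19:34583279-34583528 on the plus strand (Ifit3), chr19:34607707-34607956 on the plus strand (Ifit3b), chr8:71537473-71537722 on the minus strand (Bst2) and chr16:91484965-91485214 on the plus strand (Ifnar1). The Isg15 window held 3 overlapping matches, and the windows of Ifit1, Ifit3, Ifit3b and Bst2 held 2 each. The motif was found in 10 of 30 members (33.3%), in 37 of 96 other genes of the pathway (38.5%) and in 936 of all 27025 genes with a promoter entry (3.46%). The other 5 members with a match were Ifitm2, Oas1a, Oas3, Rsad2 and Stat2. A match is a match of letters in this window and no evidence of binding. Among tested members, it occurred in 4 of 13 that rose at P0, fell at P14 and rose at A6m, and in 5 of 15 others.

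Several properties of the libraries bear on every value that follows. Ttr, which encodes the carrier transthyretin and marks the epithelium, was at 11199.8 to 21003 TPM at E12.5 and at 137436 to 168699 TPM in the 9 later libraries, so this marker of the tissue was present in all 12. The tissue make-up differed by age. The 5 erythroid markers summed to 27573 to 35400.5 TPM at E12.5, 3817 to 7446 TPM at P0, 478 to 522 TPM at P14 and 83.8 to 312 TPM at A6m. The 6 fibroblast markers summed to 1003 to 1337, 581 to 599, 264 to 309 and 166 to 237 TPM at the same ages. The part of these shifts in the results was not tested. TPM always sums to the same total, so values are relative to the rest of the library. The median log2 difference of all tested genes was -0.27 for P0 against E12.5, -0.41 for P14 against P0, -0.04 for A6m against P14, -0.71 for A6m against E12.5 and -0.45 for A6m against P0. With the libraries rescaled by the median of ratios, these medians lay between -0.02 and 0.00, and calls that depend on this are named or counted. Xist, transcribed from the inactive X chromosome, was at 148 to 155 TPM at A6m and under 1 TPM at P0 and P14, where the Y-linked Ddx3y was at 80.1 to 117 TPM, so the age of A6m cannot be told apart from the sex of its animals. At E12.5 the Xist level was 139 TPM in replicate 1, 0.389 TPM in replicate 2 and 89.5 TPM in replicate 3, and Ddx3y had 9.26, 54.4 and 50.9 TPM in the same libraries, so the embryonic libraries differed in this from each other and from P0, and its part in the results was not tested. In E12.5 replicate 1 the median tested gene lay 0.15 below its age mean on the log2 scale. In whole tissue, fewer cells of a type and less RNA per cell cannot be told apart.

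The set rose at birth, fell by P14 and rose again in the adult. At P0, 26 of the 35 tested members were higher than at E12.5 and 4 were lower, while 18.6% of all tested genes were higher and 43.7% lower. At P14, 2 members were higher than at P0 and 29 lower, on a background of 5.33% higher and 53.5% lower. At A6m, 21 members were higher than at P14 and 1 was lower, on a background of 8.78% and 12.1%. The members' median log2 difference was 1.01, -1.09 and 0.77 at the 3 steps. With median-of-ratios scaling the split was 29 higher and 2 lower at the first step, 3 and 22 at the second, and 25 and 1 at the third, whereas of all 17422 tested genes 5047 (29.0%) were then higher and 5409 lower at the first step, 3956 (22.7%) and 3454 (19.8%) at the second, and 2643 (15.2%) and 2434 at the third. A moderated F-test over the 4 ages called 34 of 35 members, where 85.1% of all tested genes were called, and the member not called was Irf1.

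**Figure D1:**
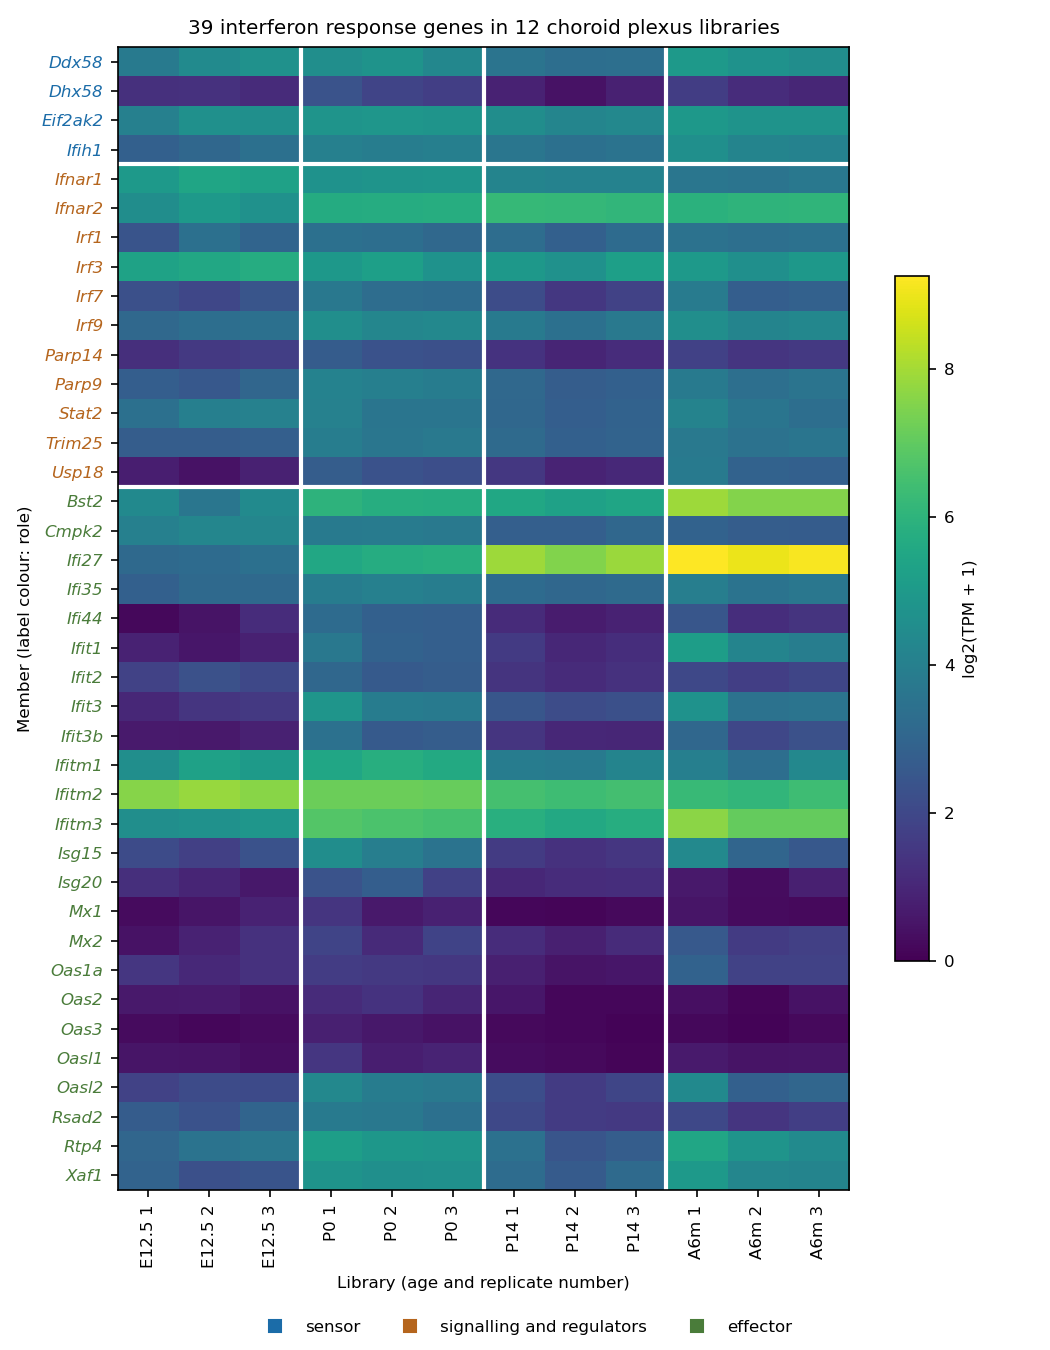
Level of the 39 members as log2(TPM + 1) in each library, with rows grouped by role and columns by age and replicate number. Most rows are brighter at P0 and A6m than at E12.5 and P14. Ifi27 brightens at every age, and Ifitm2 and Ifnar1 darken.

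The same members made all 3 moves in 16 cases: 1 sensor (Ifih1), 5 regulators (Irf7, Irf9, Usp18, Trim25 and Parp9) and 10 effectors (Ifit1, Ifit2, Ifit3, Ifit3b, Ifi35, Ifitm3, Isg15, Oasl2, Xaf1 and Rtp4). That is 45.7% of the tested members, against 1.09% of all tested genes (190 of 17422). Which members these are depends on the scaling. With median-of-ratios scaling there were 17 (48.6%, against 1.08% of all tested genes), without Ifih1 and Irf9 and with Ddx58, Dhx58 and Parp14. With the 10 most abundant genes removed there were 16 (45.7%, against 1.22%), with Ddx58 in place of Ifih1. The comparisons share libraries, so the 3 moves are not independent of each other. The summed level of all 39 members was 488 to 594 TPM at E12.5, 792 to 906 TPM at P0, 589 to 719 TPM at P14 and 1255 to 1656 TPM at A6m. Neighbouring ages did not overlap in this sum, while E12.5 and P14 did. Ifi27, which rose at every age, averaged 8.73, 51.1, 219 and 563 TPM of it, so the sum does not give the course of most members. By mean level, 23 of the 39 members were highest at P0, 10 at A6m, 5 at E12.5 and 1 at P14.

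**Figure D2:**
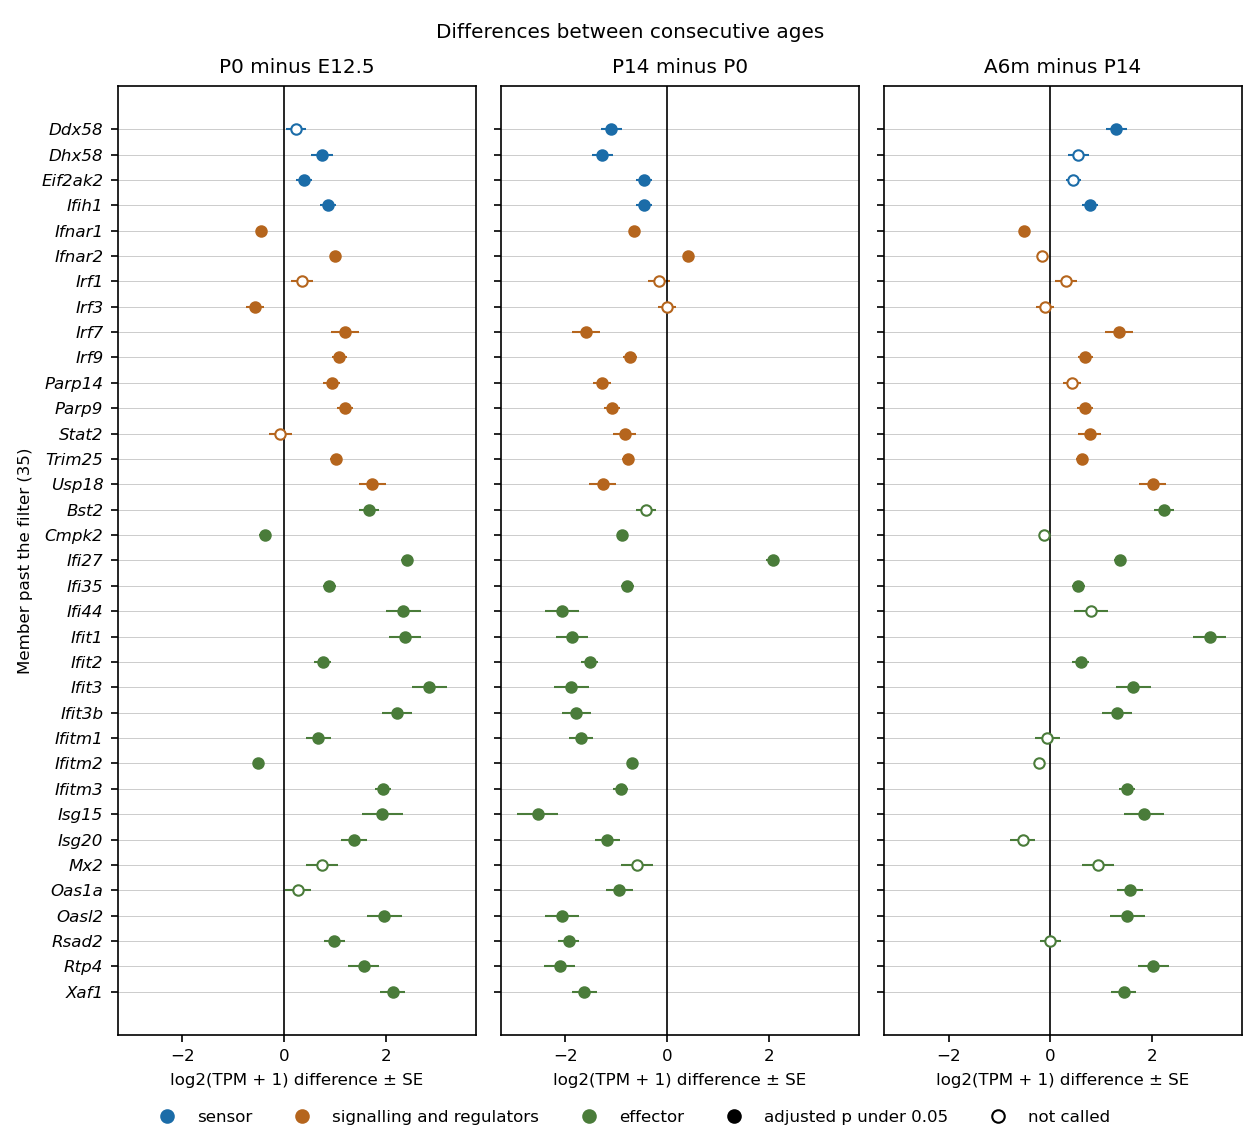
Difference in log2(TPM + 1) of each of the 35 tested members, later age minus earlier age, at the 3 consecutive steps, with its standard error. Filled points passed an adjusted p of 0.05. Most points lie right of 0 at P0, left of 0 at P14 and right of 0 at A6m, and Ifi27 lies right of 0 in all 3 panels.

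Among the sensors, 3 of 4 rose at P0, all 4 fell at P14 and 2 rose at A6m. Of all tested genes, 18.6% rose, 53.5% fell and 8.78% rose at these steps. With median-of-ratios scaling, 4 sensors rose at P0, 2 fell at P14 and 4 rose at A6m. The shares of all tested genes were then 29.0%, 19.8% and 15.2%, so the counts of this small class depend on the scaling. Ifih1, which encodes the double-stranded RNA sensor MDA5, had 6.14, 7.59 and 9.74 TPM at E12.5, 15.4, 14.04 and 15.1 TPM at P0, 11.6, 9.76 and 10.4 TPM at P14 and 23.5, 17.2 and 16.3 TPM at A6m. Its P0 and A6m libraries lay above all E12.5 and P14 libraries, so the groups of neighbouring ages did not overlap. It rose by 0.86 ± 0.16 (SE, adjusted p = 0.000708) for P0 against E12.5, fell by 0.45 ± 0.16 (SE, adjusted p = 0.0307) for P14 against P0 and rose by 0.78 ± 0.16 (SE, adjusted p = 0.00596) for A6m against P14. The adult level was also above the embryonic one, by 1.18 ± 0.16 (SE, adjusted p = 3.70e-05). Its fall at P14 was no longer called when any 1 of the P0 libraries, P14 replicate 2 or P14 replicate 3 was left out (adjusted p = 0.0508 to 0.0951), and with median-of-ratios scaling its difference was 0.02 (adjusted p = 0.898). Its rise at A6m against P14 lost its call when the libraries numbered 1 at P0, P14 and A6m were all left out (adjusted p = 0.0622).

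Ddx58, the gene of the RNA sensor RIG-I, had 13.1, 20.4 and 24.4 TPM at E12.5, 22.6, 26.1 and 18.5 TPM at P0, 10.9, 9.18 and 9.49 TPM at P14 and 30.2, 25.3 and 22.002 TPM at A6m. Its 3 P14 libraries were the lowest of the 12, while the E12.5 and P0 libraries overlapped. It fell by 1.10 ± 0.20 (SE, adjusted p = 0.00102) for P14 against P0 and rose by 1.30 ± 0.20 (SE, adjusted p = 0.00119) for A6m against P14, and its difference for P0 against E12.5 was 0.23 ± 0.20 (SE), adjusted p = 0.343. With median-of-ratios scaling Ddx58 was called higher at P0 than at E12.5 as well. Dhx58, which encodes LGP2, the relative of RIG-I and MDA5 that lacks their signalling domains, was the scarcest sensor, with 1.41, 1.52 and 1.19 TPM at E12.5, 4.11, 2.73 and 2.32 TPM at P0, 0.826, 0.374 and 0.793 TPM at P14 and 2.19, 1.23 and 0.988 TPM at A6m. It stood highest at P0, where it was above all other libraries, and its difference for A6m against P14 did not pass (adjusted p = 0.0947). With median-of-ratios scaling Dhx58 was called higher at A6m than at P14.

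Eif2ak2 encodes PKR, the kinase that stops translation on double-stranded RNA, and had 15.4, 24.1 and 23.5 TPM at E12.5, 26.7, 28.4 and 26.8 TPM at P0, 22.5, 17.4 and 19.2 TPM at P14 and 29.7, 26.2 and 25.9 TPM at A6m. Its range was narrow, and its P0 libraries lay above those of E12.5 by a small margin. It rose by 0.39 ± 0.15 (SE, adjusted p = 0.0448) for P0 against E12.5, fell by 0.46 ± 0.15 (SE, adjusted p = 0.0236) for P14 against P0 and rose by 0.38 ± 0.15 (SE, adjusted p = 0.0379) for A6m against E12.5. These calls were marginal. The first lapsed without any 1 of E12.5 replicate 1, P14 replicate 3 or a P0 or A6m library (adjusted p = 0.0527 to 0.128), the second without P0 replicate 2, P14 replicate 2 or P14 replicate 3 (0.0598 to 0.0895), and the third without E12.5 replicate 1 or any A6m library (0.0548 to 0.119). With median-of-ratios scaling the P14 difference was 0.04 (adjusted p = 0.789), while the other 2 calls held.

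The 2 subunits of the type I interferon receptor went in opposite directions. Ifnar1 had 31.6, 42.6 and 37.9 TPM at E12.5, 25.7, 26.96 and 27.7 TPM at P0, 17.2, 16.3 and 16.4 TPM at P14 and 11.3, 10.7 and 11.9 TPM at A6m, and each later age lay wholly below the one before. It fell by 0.46 ± 0.10 (SE, adjusted p = 0.00184) for P0 against E12.5, fell by 0.65 ± 0.10 (SE, adjusted p = 0.000267) for P14 against P0 and fell by 0.52 ± 0.10 (SE, adjusted p = 0.00341) for A6m against P14. Over the whole span it fell by 1.63 ± 0.10 (SE, adjusted p = 4.58e-08) for A6m against E12.5, and it fell by 1.18 ± 0.10 (SE, adjusted p = 2.31e-06) for A6m against P0. With median-of-ratios scaling its differences were smaller, at -0.18 for P0 against E12.5 (adjusted p = 0.0477), -0.16 for P14 against P0 (adjusted p = 0.0868, not called), -0.82 for A6m against E12.5 and -0.64 for A6m against P0. Without the 10 most abundant genes, the difference for P0 against E12.5 was -0.17 and not called (adjusted p = 0.125). With only replicates 2 and 3 at P0, P14 and A6m, no member was called lower for A6m against P14, so its fall at that step was not called there.

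Ifnar2, the subunit that USP18 binds, had 22.01, 30.8 and 24.7 TPM at E12.5, 51.5, 52.8 and 53.2 TPM at P0, 72.2, 70.9 and 68.1 TPM at P14 and 59.4, 63.3 and 64.97 TPM at A6m. Each postnatal library exceeded every embryonic one, and the A6m libraries lay between those of P0 and P14. It rose by 1.01 ± 0.10 (SE, adjusted p = 6.86e-06) for P0 against E12.5 and rose by 0.42 ± 0.10 (SE, adjusted p = 0.00452) for P14 against P0, with -0.17 ± 0.10 (SE), adjusted p = 0.281 for A6m against P14. For A6m against E12.5 it rose by 1.26 ± 0.10 (SE, adjusted p = 4.55e-07). Its small difference for A6m against P0, 0.25 ± 0.10 (SE), adjusted p = 0.0490, lapsed in 10 of the 12 fits that left out 1 library (adjusted p = 0.0540 to 0.131), all but those without E12.5 replicate 1 or E12.5 replicate 2. With median-of-ratios scaling that difference was larger, at 0.81 (adjusted p = 2.93e-05).

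**Figure D3:**
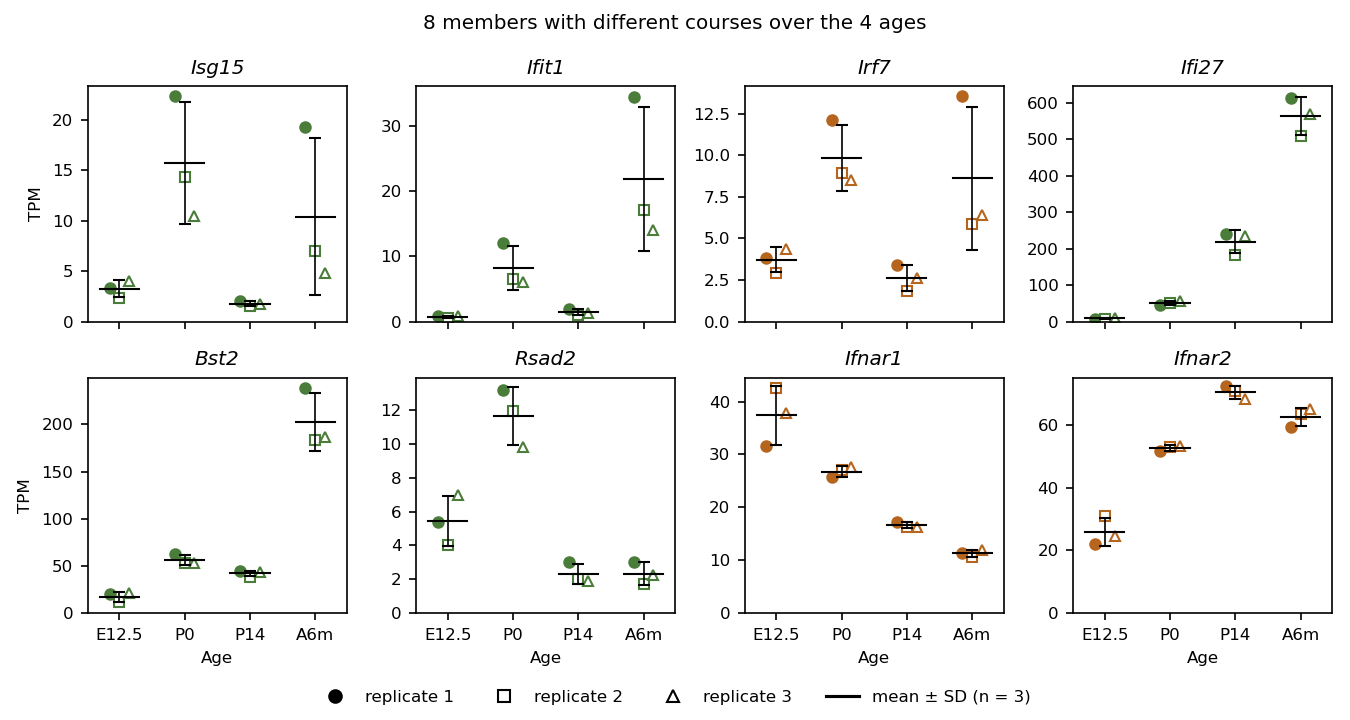
TPM of 8 members in each library, with the mean and SD of each age (n = 3, axes from 0). Isg15, Ifit1 and Irf7 are high at P0 and A6m, with replicate 1 on top at both ages. Ifi27 climbs at every age, Bst2 is highest at A6m, Rsad2 peaks at P0, Ifnar1 declines throughout and Ifnar2 stays high after birth.

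The transcription factors of the pathway did not move as a block. Irf7, the factor that is itself raised by interferon, had 3.84, 2.92 and 4.38 TPM at E12.5, 12.1, 8.90 and 8.52 TPM at P0, 3.42, 1.85 and 2.59 TPM at P14 and 13.6, 5.87 and 6.40 TPM at A6m. Every P0 and A6m library exceeded every E12.5 and P14 library, and replicate 1 was highest at P0, P14 and A6m. It rose by 1.20 ± 0.28 (SE, adjusted p = 0.00302) for P0 against E12.5, fell by 1.59 ± 0.28 (SE, adjusted p = 0.000689) for P14 against P0 and rose by 1.35 ± 0.28 (SE, adjusted p = 0.00588) for A6m against P14. Its A6m level was above that of E12.5 by 0.95 ± 0.28 (SE, adjusted p = 0.00848), and A6m minus P0 was -0.25 ± 0.28 (SE), adjusted p = 0.458.

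Irf9, the DNA-binding partner of STAT2, had 7.81, 9.05 and 9.80 TPM at E12.5, 23.1, 18.1 and 18.9 TPM at P0, 12.8, 9.76 and 12.3 TPM at P14 and 22.9, 16.97 and 18.4 TPM at A6m. Its P0 and A6m libraries overlapped and lay above those of E12.5 and P14. It rose by 1.09 ± 0.14 (SE, adjusted p = 6.00e-05) for P0 against E12.5, fell by 0.73 ± 0.14 (SE, adjusted p = 0.00135) for P14 against P0, rose by 0.69 ± 0.14 (SE, adjusted p = 0.00602) for A6m against P14 and rose by 1.04 ± 0.14 (SE, adjusted p = 4.19e-05) for A6m against E12.5, and A6m minus P0 was -0.04 ± 0.14 (SE), adjusted p = 0.810. Its fall at P14 was not called with median-of-ratios scaling (adjusted p = 0.106).

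Stat2, which joins IRF9, had 9.64, 14.96 and 15.9 TPM at E12.5, 15.9, 11.2 and 10.996 TPM at P0, 7.45, 5.83 and 6.55 TPM at P14 and 16.6, 11.2 and 9.20 TPM at A6m. No rise was called at birth, where the E12.5 and P0 libraries overlapped (-0.07 ± 0.23 (SE), adjusted p = 0.802), and only the P14 libraries were low. It fell by 0.83 ± 0.23 (SE, adjusted p = 0.00976) for P14 against P0 and rose by 0.77 ± 0.23 (SE, adjusted p = 0.0359) for A6m against P14, with differences of -0.13 (adjusted p = 0.618) for A6m against E12.5 and -0.06 (adjusted p = 0.839) for A6m against P0. The fall was not called with scaling (adjusted p = 0.153), and the adult rise lapsed without any 1 of the P14 libraries, A6m replicate 1 or A6m replicate 2 (0.0583 to 0.132).

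Irf3, the factor kept ready in resting cells, had 39.2, 45.8 and 51.6 TPM at E12.5, 29.9, 36.7 and 25.2 TPM at P0, 29.4, 25.01 and 36.6 TPM at P14 and 31.5, 23.2 and 29.6 TPM at A6m. Its E12.5 libraries were the highest, and the later ages overlapped. It fell by 0.57 ± 0.18 (SE, adjusted p = 0.0160) for P0 against E12.5 and fell by 0.68 ± 0.18 (SE, adjusted p = 0.00432) for A6m against E12.5, and neither call held with median-of-ratios scaling (-0.28 and 0.15, adjusted p = 0.0890 and 0.328). Its differences were -0.01 for P14 against P0, -0.10 for A6m against P14 and -0.11 for A6m against P0 (adjusted p = 0.960, 0.753 and 0.593). Irf1, a factor of the interferon gamma response, averaged 6.98 TPM at E12.5, then 8.89 at P0, 7.86 at P14 and 9.89 at A6m, and none of its 5 comparisons passed.

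Usp18, the brake on the receptor, had 0.705, 0.377 and 0.811 TPM at E12.5, 5.69, 3.98 and 3.70 TPM at P0, 1.86, 0.886 and 1.09 TPM at P14 and 12.9, 6.49 and 6.17 TPM at A6m. Its A6m libraries were the highest of all 12, and those of P0 came next. It rose by 1.73 ± 0.26 (SE, adjusted p = 0.000174) for P0 against E12.5, fell by 1.26 ± 0.26 (SE, adjusted p = 0.00206) for P14 against P0, rose by 2.02 ± 0.26 (SE, adjusted p = 0.000356) for A6m against P14 and rose by 2.49 ± 0.26 (SE, adjusted p = 5.10e-06) for A6m against E12.5. For A6m against P0 it rose by 0.75 ± 0.26 (SE, adjusted p = 0.0274), a call that lapsed without P0 replicate 2, P0 replicate 3 or A6m replicate 1 (adjusted p = 0.0768, 0.0864 and 0.106).

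Trim25, a ubiquitin ligase that activates RIG-I, had 5.56, 5.71 and 5.92 TPM at E12.5, 14.01, 11.5 and 12.3 TPM at P0, 8.15, 6.11 and 6.66 TPM at P14 and 12.4, 10.3 and 11.01 TPM at A6m. All P0 and A6m libraries exceeded all E12.5 and P14 libraries. It rose by 1.01 ± 0.11 (SE, adjusted p = 1.76e-05) for P0 against E12.5 and fell by 0.78 ± 0.11 (SE, adjusted p = 0.000231) for P14 against P0, a fall that quantile normalization left just outside the threshold (adjusted p = 0.0522). Parp9, an ADP-ribosyltransferase family member known as a partner of the ubiquitin ligase DTX3L, had 5.86, 4.87 and 7.33 TPM at E12.5, 16.05, 14.9 and 13.7 TPM at P0, 7.85, 5.60 and 6.08 TPM at P14 and 12.9, 9.34 and 10.9 TPM at A6m. It was highest at P0, and the A6m libraries lay between those of P14 and P0. It rose by 1.19 ± 0.16 (SE, adjusted p = 6.58e-05) for P0 against E12.5 and fell by 1.09 ± 0.16 (SE, adjusted p = 0.000228) for P14 against P0. For A6m against P0 it fell by 0.41 ± 0.16 (SE, adjusted p = 0.0433), but this call was lost in 7 of 12 fits that left out 1 library (without E12.5 replicate 1, P14 replicate 3, A6m replicate 2, A6m replicate 3 or any P0 library, adjusted p = 0.0503 to 0.159), and with scaling the difference was 0.12 (adjusted p = 0.480). Its neighbour on chromosome 16, Parp14, averaged 1.86 TPM at E12.5, then 4.47 at P0, 1.24 at P14 and 2.01 at A6m, a peak at P0 without a called rise in the adult (adjusted p = 0.112). With median-of-ratios scaling Parp14 was called higher at A6m than at P14.

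Of the 20 tested effectors, 16 rose and 2 fell at P0, 1 rose and 17 fell at P14, and 13 rose with none lower at A6m. With median-of-ratios scaling these splits were 17 and 1, 1 and 15, and 14 and 0. The shares of all tested genes at these steps are those given above for the whole set. Isg15, the ubiquitin-like protein that interferon raises and USP18 removes, had 3.35, 2.36 and 4.07 TPM at E12.5, 22.3, 14.4 and 10.4 TPM at P0, 2.02, 1.504 and 1.73 TPM at P14 and 19.3, 7.04 and 4.85 TPM at A6m. Its P0 and A6m libraries stood above those of P14 without overlap, and within each of these 3 ages replicate 1 was highest. It fell by 2.54 ± 0.40 (SE, adjusted p = 0.000366) for P14 against P0 and rose by 1.84 ± 0.40 (SE, adjusted p = 0.00776) for A6m against P14. The promoter printed above for Isg15 is the one with 3 matches.

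The Ifit genes, which encode proteins that bind foreign RNA and block its translation, sit side by side on chromosome 19. Ifit1 had 0.848, 0.491 and 0.797 TPM at E12.5, 12.1, 6.605 and 6.04 TPM at P0, 1.997, 1.06 and 1.33 TPM at P14 and 34.5, 17.1 and 14.1 TPM at A6m. It was under 1 TPM in every embryonic library, and the A6m libraries lay above all others. It rose by 2.38 ± 0.32 (SE, adjusted p = 6.53e-05) for P0 against E12.5, rose by 3.13 ± 0.32 (SE, adjusted p = 6.28e-05) for A6m against P14 and rose by 3.64 ± 0.32 (SE, adjusted p = 9.73e-07) for A6m against E12.5. Among the tested members, only Ifi27 had a larger difference for A6m against E12.5 as deposited, while with median-of-ratios scaling Bst2 (4.32) also exceeded Ifit1 (4.16).

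Ifit3 had 1.02, 1.70 and 1.88 TPM at E12.5, 27.4, 13.8 and 13.2 TPM at P0, 4.55, 3.39 and 3.81 TPM at P14 and 25.5, 10.2 and 10.9 TPM at A6m. It rose by 2.86 ± 0.34 (SE, adjusted p = 2.94e-05) for P0 against E12.5, the largest rise of any member at that step, and rose by 2.60 ± 0.34 (SE, adjusted p = 3.02e-05) for A6m against E12.5. Ifit3b had a like course at a lower level, averaging 0.643 TPM at E12.5, then 6.92 at P0, 1.24 at P14 and 4.81 at A6m. These 2 genes share much of their sequence, as 61.8% of the 31-base words of Ifit3 transcripts also occur in Ifit3b, so the division of reads between them is uncertain. Ifit2 averaged 3.18 TPM at E12.5, then 6.07 at P0, 1.44 at P14 and 2.69 at A6m, and its adult mean lay below its P0 mean by 0.93 on the log2 scale (adjusted p = 0.000529), and that of Ifit1 was 1.26 above (adjusted p = 0.00492).

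Rtp4, a chaperone of receptor proteins that is strongly raised by interferon, had 7.24, 10.6 and 11.7 TPM at E12.5, 35.8, 29.2 and 27.4 TPM at P0, 10.1, 4.37 and 5.63 TPM at P14 and 43.8, 26.4 and 20.6 TPM at A6m. It fell by 2.11 ± 0.31 (SE, adjusted p = 0.000219) for P14 against P0 and rose by 2.02 ± 0.31 (SE, adjusted p = 0.000900) for A6m against P14, and its P0 and A6m ranges overlapped. Oasl2, a relative of the oligoadenylate synthetases, had 2.57, 3.32 and 3.24 TPM at E12.5, 18.9, 13.7 and 12.52 TPM at P0, 3.55, 2.09 and 2.82 TPM at P14 and 20.04, 6.08 and 7.32 TPM at A6m. It fell by 2.07 ± 0.34 (SE, adjusted p = 0.000508) for P14 against P0, and its A6m replicate 1 stood far above the other A6m libraries but near P0 replicate 1. Xaf1, a partner of inhibitor-of-apoptosis proteins, averaged 4.92 ± 1.54 TPM at E12.5, 24.4 ± 1.20 TPM at P0, 7.38 ± 1.86 TPM at P14 and 22.2 ± 8.07 TPM at A6m (SD, n = 3), and Ifi35 averaged 7.41 ± 1.07 TPM at E12.5, 14.5 ± 0.799 TPM at P0, 7.9999 ± 0.489 TPM at P14 and 12.3 ± 2.10 TPM at A6m. Both made all 3 moves of the set.

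Ifi27 did not follow the set. It encodes a small membrane protein raised by type I interferon, and it had 8.07, 8.33 and 9.80 TPM at E12.5, 46.1, 51.5 and 55.6 TPM at P0, 239.6, 182 and 235 TPM at P14 and 612, 509 and 569 TPM at A6m. Each age lay wholly above the age before it, and from P14 on Ifi27 had the highest mean of the 39 members. It rose by 2.42 ± 0.12 (SE, adjusted p = 4.93e-08) for P0 against E12.5 and rose by 2.07 ± 0.12 (SE, adjusted p = 8.78e-07) for P14 against P0, the step at which 29 members fell. For A6m it rose by 5.86 ± 0.12 (SE, adjusted p = 3.87e-11) against E12.5 and rose by 3.44 ± 0.12 (SE, adjusted p = 7.29e-09) against P0. The level at A6m was 64.5-fold that of E12.5 by the means.

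Bst2 encodes tetherin, which holds budding virus on the cell surface, and had 20.3, 11.3 and 20.8 TPM at E12.5, 62.7, 53.1 and 52.7 TPM at P0, 44.5, 38.6 and 43.04 TPM at P14 and 238, 184 and 186 TPM at A6m. The A6m libraries were far above those of every other age, and the dip at P14 was small, -0.41 ± 0.20 (SE), adjusted p = 0.0946. It rose by 2.24 ± 0.20 (SE, adjusted p = 2.22e-05) for A6m against P14, rose by 3.50 ± 0.20 (SE, adjusted p = 2.62e-08) for A6m against E12.5 and rose by 1.83 ± 0.20 (SE, adjusted p = 1.48e-05) for A6m against P0. At A6m, Ifi27, Bst2 and Ifitm3 together with Ifitm2 and Ifnar2 had the 5 highest means of the 39 members.

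The Ifitm genes, whose proteins hinder entry of viruses through the membrane, parted from each other although they lie within one cluster on chromosome 7. Ifitm3 had 22.8, 24.5 and 28.4 TPM at E12.5, 110.3, 97.9 and 91.1 TPM at P0, 56.3, 47.7 and 53.5 TPM at P14 and 197, 132 and 132 TPM at A6m, and made all 3 moves of the set. Ifitm2 had 189, 228 and 193 TPM at E12.5, 142, 145 and 138 TPM at P0, 90.9, 82.1 and 88.7 TPM at P14 and 74.4, 68.1 and 83.4 TPM at A6m, and declined from the highest mean of all members at E12.5. The decline of Ifitm2 is uncertain in size, since 55.5% of its 31-base words occur in other genes, and its step from P0 to P14 was not called with scaling (adjusted p = 0.105). Ifitm1 had 22.6, 38.3 and 32.1 TPM at E12.5, 43.8, 54.8 and 48.5 TPM at P0, 13.8, 12.8 and 16.95 TPM at P14 and 14.8, 9.14 and 19.1 TPM at A6m. It peaked at P0 and did not come back, as it fell by 1.75 ± 0.24 (SE, adjusted p = 9.66e-05) for A6m against P0, and its A6m libraries overlapped those of P14.

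Rsad2 and Cmpk2, neighbours on chromosome 12, also stayed low in the adult. Rsad2 encodes viperin, which makes a chain-terminating nucleotide from CTP, and had 5.40, 4.01 and 6.95 TPM at E12.5, 13.2, 11.9 and 9.82 TPM at P0, 3.02, 2.04 and 1.89 TPM at P14 and 3.02, 1.70 and 2.27 TPM at A6m. It fell by 1.94 ± 0.21 (SE, adjusted p = 1.48e-05) for A6m against P0, and A6m minus P14 was 0.00 ± 0.21 (SE), adjusted p = 1.00. Cmpk2, a mitochondrial nucleotide kinase, averaged 17.1 TPM at E12.5, then 12.9 at P0, 6.53 at P14 and 5.92 at A6m, with its highest libraries at E12.5. Its fall at P0, -0.38 ± 0.11 (SE), adjusted p = 0.00964, was not called with scaling (adjusted p = 0.325), whereas its fall at P14 held.

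Isg20, an exonuclease of RNA, had 1.38, 0.957 and 0.497 TPM at E12.5, 4.16, 5.79 and 2.48 TPM at P0, 1.03, 1.24 and 1.32 TPM at P14 and 0.569, 0.230 and 0.768 TPM at A6m. It was highest at P0 and, by its mean, lowest at A6m, where every library was under 1 TPM. Ifi44, an interferon-induced protein, had 0.147, 0.393 and 1.26 TPM at E12.5, 8.46, 6.10 and 6.06 TPM at P0, 1.19, 0.612 and 0.828 TPM at P14 and 4.61, 1.30 and 1.62 TPM at A6m. It rose by 2.35 ± 0.34 (SE, adjusted p = 0.000112) for P0 against E12.5, and its difference for A6m against P14, 0.80 ± 0.34 (SE), adjusted p = 0.128, did not pass. Oas1a, an oligoadenylate synthetase that activates RNase L, averaged 1.47 TPM at E12.5, then 1.97 at P0, 0.550 at P14 and 3.90 at A6m, and shares 68.8% of its words with other genes, chiefly Oas1g, so its value is uncertain. Mx2, of the family of dynamin-like GTPases, averaged 0.902 TPM at E12.5, then 2.18 at P0, 1.06 at P14 and 3.11 at A6m. It passed only for A6m against E12.5 (adjusted p = 0.00763). The GENCODE gene annotation lists Mx2 as a polymorphic pseudogene, so its RNA level does not show a working protein.

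The 4 untested effectors were scarce in every library. Mx1 ranged from 0.0816 to 1.69 TPM, Oas2 from 0.0952 to 1.58, Oas3 from 0.0646 to 0.749 and Oasl1 from 0.0995 to 1.75. Each had its highest library at P0. The laboratory B6 strain is known to carry a defective Mx1 gene.

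Set against birth rather than P14, the adult level was mixed. At A6m, 6 members were higher than at P0 (Ifnar2, Usp18, Ifit1, Ifi27, Ifitm3 and Bst2) and 11 were lower, on a background of 9.78% of all tested genes higher and 54.6% lower. With median-of-ratios scaling the split was 16 higher and 9 lower, on a background of 29.7% and 27.1% under that scaling, so the balance of this comparison depends on the scaling and the share of members lower was near the background. Against E12.5, 22 members were higher at A6m and 6 were lower (Ifnar1, Irf3, Ifitm1, Ifitm2, Rsad2 and Cmpk2), on a background of 15.2% and 62.0%, and with scaling 27 were higher and 3 lower on a background of 35.4% and 35.8%, with Irf3, Ifitm1 and Rsad2 no longer called. These comparisons share their A6m libraries with each other and with A6m against P14.

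Other genes of the pathway, a list of 118 of which 87 were tested, moved less uniformly. At P0 44 (50.6%) were higher and 12 (13.8%) lower than at E12.5, on a background of 18.6% and 43.7% of all tested genes. At P14 2 (2.30%) were higher and 65 (74.7%) lower than at P0, on a background of 5.33% and 53.5%. At A6m 34 (39.1%) were higher and 8 (9.20%) lower than at P14, on a background of 8.78% and 12.1%. For A6m, 36 (41.4%) were higher and 30 (34.5%) lower against E12.5, on a background of 15.2% and 62.0%. Against P0, 19 (21.8%) were higher and 42 (48.3%) lower, on a background of 9.78% and 54.6%, so the share lower was near the background. With median-of-ratios scaling these splits were 60 and 7, 9 and 38, 40 and 9, 55 and 16, and 39 and 25. Of the 87, 14 made all 3 moves (16.1%, against 1.09% of all tested genes), among them Gbp3, Irgm1, Iigp1 and Trim30a. The interferon genes themselves were almost unseen. Of 21 listed, 17 were at 0 in all 12 libraries and the highest value of any was 0.265 TPM.

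Among these genes, the immunity-related GTPase Iigp1 had 0.483, 0.544 and 0.552 TPM at E12.5, 13.3, 9.50 and 9.21 TPM at P0, 2.18, 1.17 and 1.65 TPM at P14 and 7.25, 3.17 and 5.10 TPM at A6m, a course like that of the Ifit genes, and rose by 2.92 ± 0.24 (SE, adjusted p = 1.53e-06) for P0 against E12.5. Tgtp1, a further GTPase of that family, had 0.320, 0.118 and 0.114 TPM at E12.5, 4.39, 5.13 and 4.32 TPM at P0, 23.1, 24.5 and 21.7 TPM at P14 and 71.95, 57.2 and 58.5 TPM at A6m. Like Ifi27 it rose at every age, with 5.74 ± 0.11 (SE), adjusted p = 3.13e-11 for A6m against E12.5.

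Other pathway genes chosen by size of change were split in the same ways. Ifi27l2a, a relative of Ifi27, had 101, 58.5 and 55.9 TPM at A6m, against 7.70, 9.56 and 10.99 TPM at P14, and it rose by 2.77 ± 0.25 (SE, adjusted p = 2.70e-05). Irgm1, Gbp3 and Trim30a rose beside it for A6m against P14, by 1.94, 1.88 and 1.84 on the log2 scale (adjusted p = 8.78e-05, 0.00171 and 4.59e-05). At P0, Ifi203, Mndal and Lgals3bp were 2.85, 2.45 and 2.10 above E12.5 (adjusted p = 1.06e-05, 1.71e-05 and 7.29e-06). At P14, Ifi204 and Uba7, the enzyme that activates ISG15, fell by 1.90 and 1.82 (adjusted p = 2.26e-05 and 0.000733). Uba7 was lower at A6m than at E12.5, by -2.73, and Lgals9 and the kinase gene Ikbke were lower at A6m than at P0, by -2.53 and -2.34 (adjusted p = 1.15e-05, 8.28e-06 and 1.83e-06).

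By the median SD, the spread between replicates was wider for the members than for other genes, most of all in the adult, although at E12.5 this turned with a pseudocount of 5 (0.139 for the members and 0.149 for all tested genes). The median SD of log2(TPM + 1) over the 3 libraries was 0.196 for the members and 0.118 for all tested genes at P0, and 0.272 and 0.110 at A6m, a ratio of 2.47. At E12.5 the medians were 0.238 and 0.208, and at P14 0.188 and 0.115. Restricted to genes averaging 5 TPM or more at that age, the medians were 0.158 and 0.0956 at P0 and 0.225 and 0.0914 at A6m, so the wider spread was not confined to scarce members.

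**Figure D4:**
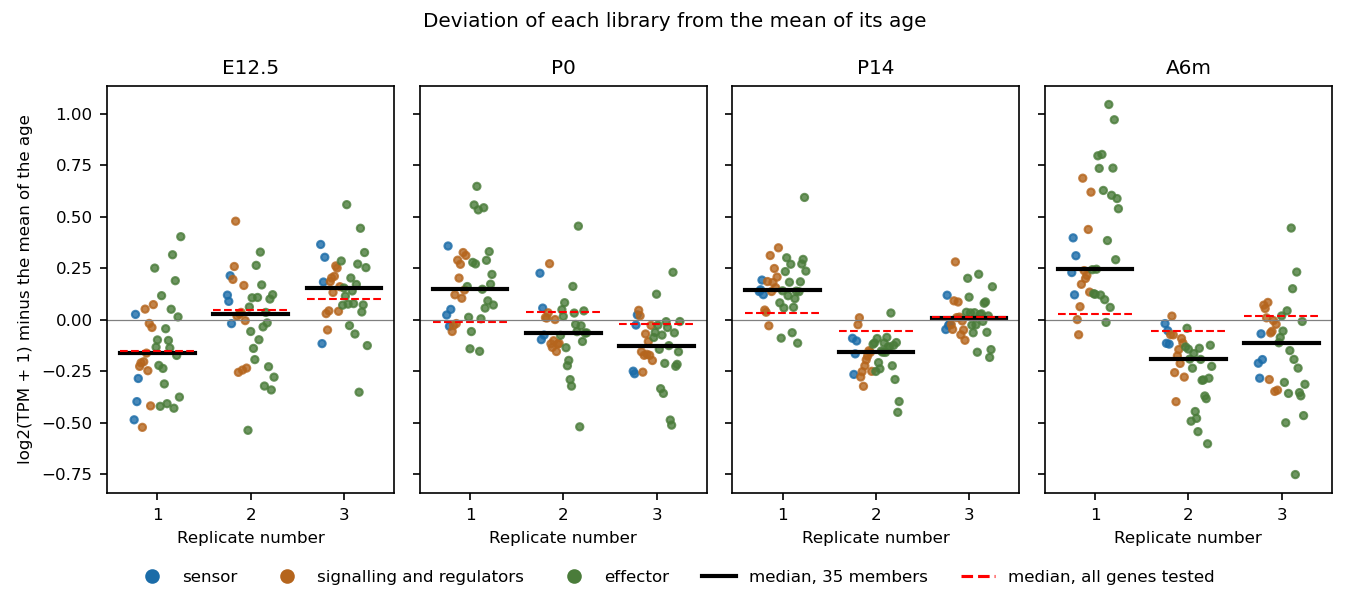
Deviation of each of the 35 tested members from the mean of its age in log2(TPM + 1), by library, with the median of the members (black) and of all tested genes (red, dashed). At P0, P14 and A6m the members' median lies above that of all genes in replicate 1, and at A6m the members of replicate 1 reach the largest deviations.

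Replicate 1 stood highest for most members at each postnatal age. At A6m, replicate 1 was the highest of the 3 for 30 of 35 members (85.7%), against 44.8% of all tested genes. At P0, replicate 1 was highest for 24 members (68.6% against 30.7%), and at P14 for 31 (88.6% against 45.1%). The shared number carries no shared source in the labels. The members' median deviation in A6m replicate 1 was 0.25 above the age mean, while that of all genes was 0.03, and in P0 replicate 1 it was 0.15 and -0.01. The 5 members with the largest SD at A6m were Isg15 (0.93), Oasl2 (0.85), Ifit3, Ifi44 (both 0.70) and Ifit1 (0.65), all effectors. A6m replicate 1 held 3.25 times the mean of the other 2 libraries for Isg15, 3.16 times for Ifi44, 2.99 times for Oasl2, 2.43 times for Ifit3 and 2.21 times for Ifit1.

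At P0 the 5 members with the largest SD were Ifit3 (0.56), Isg15 (0.52), Ifit1, Isg20 (both 0.49) and Ifit3b (0.46). P0 replicate 1 held 2.03 times the mean of the others for Ifit3 and 1.91 times for Ifit1, whereas Isg20 was highest in replicate 2. The receptor genes were steady in the same libraries, with SDs of 0.05 (Ifnar1) and 0.02 (Ifnar2) at P0 and 0.07 and 0.07 at A6m. Among the 25 protein-coding genes that most exceeded the other libraries in A6m replicate 1, of 9039 averaging 5 TPM or more, 9 were members (Oasl2, Isg15, Ifit3, Irf7, Ifit1, Usp18, Xaf1, Rtp4 and Ifitm3), and the pathway genes Gbp3 and Ifi27l2a were also on the list. Members made up 26 of these 9039 genes. The rule for this list was chosen after the values were seen, so it describes these libraries and tests nothing. In P0 replicate 1 the same list, of 10252 genes (29 of them members), held 4 members and was headed by Aqp4, Gfap and Fabp7, genes of astrocytes and radial glia.

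The 3-step course was called for fewer members without these libraries. With only replicates 2 and 3 at P0, P14 and A6m, a choice made after the values were seen, 24 members were higher and 3 lower at P0 than at E12.5, 1 was higher and 28 lower at P14 than at P0, and 16 were higher and none lower at A6m than at P14. All 3 moves were then called for 12 members. Leaving out A6m replicate 1 alone gave 15, and the Isg15 rise for A6m against P14 was then 1.32 (adjusted p = 0.0126). These fits held fewer libraries than the main fit, and the shares of all tested genes called in them are not given here. The part of replicate 1 in the lower counts was not tested.

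**Figure D5:**
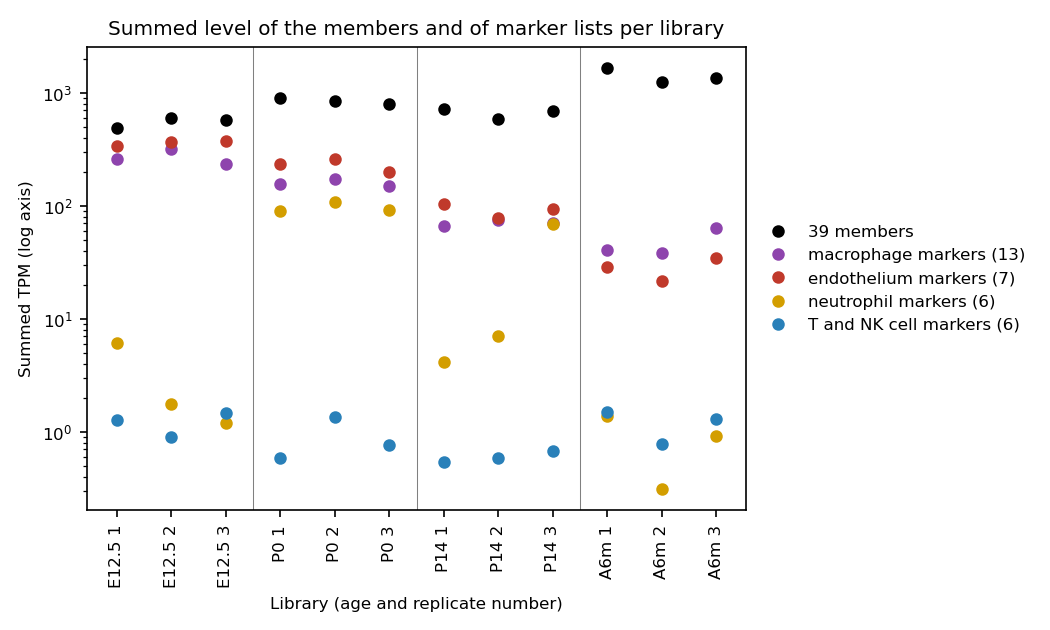
Summed TPM of the 39 members and of 4 marker lists in each library, on a log axis. The members' sum is highest at A6m, where Ifi27 alone averaged 563 TPM of it. The sums of the macrophage and endothelium markers are at their lowest at A6m, and the neutrophil markers stand high at P0 and in P14 replicate 3.

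Markers of other cell types moved beside the members, and their part in the results was not tested. The 13 macrophage markers summed to 236 to 321 TPM at E12.5, 149.9 to 174 TPM at P0, 65.7 to 74.7 TPM at P14 and 37.9 to 63.9 TPM at A6m, so they were lowest at the age at which the members' summed TPM was highest. Ifi27 alone averaged 563 of the mean sum of 1419 TPM at A6m, and more members had their highest mean at P0 than at A6m. In A6m replicate 1 the macrophage markers summed to 40.9 TPM, between the other 2 libraries. The 7 endothelium markers were lower at each later age, with 338 to 378 TPM at E12.5, 199 to 262 TPM at P0, 78.6 to 103 TPM at P14 and 21.8 to 34.8 TPM at A6m, and P14 replicate 1 had the highest sum of its age. The 6 markers of T and NK cells never passed 1.49 TPM in sum, and Cd3e was at 0 in all E12.5 libraries. The 6 markers of plasmacytoid dendritic cells, the main producers of type I interferon, summed to 42.7 to 68.5 TPM at E12.5 and 13.5 to 17.2 TPM at A6m, but nearly all of this was Tcf4, a widely expressed factor, at 39.4 to 65.2 TPM at E12.5 and 12.8 to 15.7 TPM at A6m. Ccr9, Spib, Cd300c and Klk1 were under 1 TPM in all 12 libraries, and the defining Siglech stayed at or under 2.92 TPM. The 6 neutrophil markers summed to 90.2 to 107 TPM at P0, nearly all S100a8 and S100a9, to 68.7 TPM in P14 replicate 3, and to at most 7.06 TPM in the other 8 libraries. At P0 the 5 genes of astrocytes and radial glia, added after the values were seen, summed to 164 TPM in replicate 1, against 57.7 and 83.7 TPM in replicates 2 and 3. They include Aqp4, Gfap and Fabp7, which headed the list for P0 replicate 1 above, so this sum is no separate observation. Of the rest, Slc1a3 had 33.3, 22.3 and 32.03 TPM at P0, and Aldoc had 19.6, 9.59 and 13.4 TPM.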

How the data were processed

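RNA from whole choroid plexus was profiled in 12 libraries, 3 at each of 4 ages. Dissected tissue was lysed in Trizol, libraries were made with a Kapa mRNA kit and read as 100 bp paired ends, from independent specimens, per the labels. The deposited table gives TPM per gene symbol, made by the authors with kallisto on GRCm38, per the submitters' processing notes. The annotation release and the summing of transcripts are not given in the sources used here. TPM keeps no read counts, so depth is unknown and no counting interval is given. A further 7 columns were not used.

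Values became log2(TPM + 1). Genes with at least 1 TPM in at least 3 libraries (17422) were fitted as 4 group means with limma 3.58.1 in R 4.3.3 (eBayes with trend, 8 residual degrees of freedom), and p-values were adjusted by Benjamini and Hochberg over all of them. The step was tested on simulated data. Each SD is over the 3 libraries of an age. The members, role classes and gene lists were chosen with earlier results of these data known, so their counts are descriptions and no list was tested as a set. Full statistics are given, per comparison and role, for up to 4 called members with the largest difference that average 5 TPM or more at either age, and values for 7 signalling members throughout. Positions and shared 31-base words come from GENCODE M21, promoters from RefSeq. Across genes, same-numbered libraries did not deviate together (r from -0.08 to 0.11 over 18 pairs), and the main fit did not pair them. A correlation across all genes cannot tell whether a small set such as the members deviates together. Alternatives tried were each library left out, fits to only the 6 libraries compared, a replicate block, array quality weights, the 10 most abundant genes removed, quantile and median-of-ratios scaling, a filter at a mean of 5 TPM or none, and a pseudocount of 0.1 or 5. Figures used Python 3.11.15 and matplotlib 3.10.9.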

Additional observations from a re-analysis of the deposited data

How the results depend on the processing

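Across the alternatives, 1040 of the values of named members kept their direction and call, 78 kept the direction without passing, and 5 reversed. Leaving out 1 library gave 543 kept, 45 no longer passing and 0 reversed. The reversals were on falls or small differences under another scaling: Eif2ak2 for P14 against P0 was 0.0363 with median-of-ratios scaling, Ifih1 for P14 against P0 was 0.0232 with median-of-ratios scaling and 0.00450 with quantile normalization, and Parp9 for A6m against P0 was 0.122 and 0.0689 under the same 2 settings, none of them called. Members called higher for A6m against P0 numbered 6, but 16 with median-of-ratios scaling and 15 with quantile normalization, and those called lower numbered 11, but 6 with quantile normalization and 6 with a mean of at least 5 TPM, a setting that tests fewer genes and called 11 members in all, against 17. Members lower at P0 than at E12.5 numbered 4, but 2 with median-of-ratios scaling, 2 with quantile normalization and 1 without the 10 most abundant genes. Of all tested genes, 43.7% were lower as deposited and 30.1% without the 10 most abundant genes. Members lower at A6m than at E12.5 numbered 6, but 3 with either scaling. Members higher at P14 than at P0 numbered 2, but 1 with replicates 2 and 3 only at P0, P14 and A6m, and members lower at A6m than at P14 numbered 1, but 3 with only the 6 libraries compared and 0 with those replicates only. The causes were not tested. With a pseudocount of 5, which shrinks low values, the median SD was 0.139 for the members and 0.149 for all tested genes at E12.5, where the order turned, and 0.100117 and 0.0726 at P14. With a replicate block, the members called were 30 for P0 against E12.5, 32 for P14 against P0, 21 for A6m against P14, 27 for A6m against E12.5 and 18 for A6m against P0, and the members with all 3 moves were 17. The shares of all tested genes called with quantile normalization, the 5 TPM filter, the 6 libraries compared or the replicate block are not given. The counts under these settings therefore do not show whether a change is particular to the members. Every A6m library carried Xist and no library gives a read count, so sex, depth and age cannot be separated here, and members near 1 TPM are the least certain.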
